A study of Mus musculus with 10 samples.

Results

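The 5 libraries described here are the anti-gp120 libraries of a 10-library series, chosen by their treatment label alone, and they were described for their own expression levels without setting them against the treated group. They hold polyadenylated RNA of macrophages purified from tumours that grew from MC-38, a mouse colon carcinoma line, in C57Bl/6 mice. The antibody binds gp120, a viral envelope protein that mice do not make, and was given as the control for an antibody to the receptor MerTK, whose treatment lasted 24 h per the series' design text. The labels name no age, sex, batch or sorting markers for these mice and do not say whether each library came from its own mouse, so the spread between libraries may be technical. The replicate numbers 1 to 5 used here follow accession order and only name the libraries.

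Macrophages take up dead cells, debris and opsonised particles through Fc, complement, scavenger and phosphatidylserine-binding receptors and break them down in lysosomes. They load peptides from that material onto MHC class II molecules for display to CD4 T cells. Within tumours they are known to combine such tissue-resident functions with cytokine, chemokine, matrix and metabolic programmes that differ with the signals around them.

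The libraries held between 33654103 and 42427378 counted reads, and 16475 to 18054 gene models had a count. Protein-coding genes took 96.5% ± 0.270 of counts (SD, n = 5), and genes of the mitochondrial genome took 0.711% ± 0.117. Both are shares of uniquely aligned reads, which can miss genes with near-identical copies elsewhere in the genome. The mitochondrial share is therefore uncertain and may be too low. Levels of different genes were compared as nRPKM, the deposited RPKM (counts scaled for gene model length and library depth) after the authors' size factor adjustment. Levels of the same gene in different libraries were compared as CPM, counts scaled for library depth with TMM sizes, where 3 counts correspond to 0.0721 to 0.0917 CPM. Replicates 2 and 4 were the closest pair, with 12 of 9705 genes (0.124%) differing at least 2-fold, and replicates 2 and 5 the farthest apart, with 176 (1.81%).

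Deviations between libraries were related to gene length, which touches the results on variation below. Among the 970 genes with the longest gene models, 7284 to 38822 bases, the median deviation from the 5-library mean was -0.22 on the log2 scale in replicate 3, 0.18 in replicate 2 and 0.16 in replicate 4. Among the 972 genes with the shortest models, up to 1226 bases, it was 0.13 in replicate 3, -0.11 in replicate 2 and -0.09 in replicate 4. Replicates 1 and 5 stayed within 0.05 of zero in either bin. Replicate 3 thus held fewer counts of long genes and more of short genes than replicates 2 and 4 did.

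**Figure D1:**
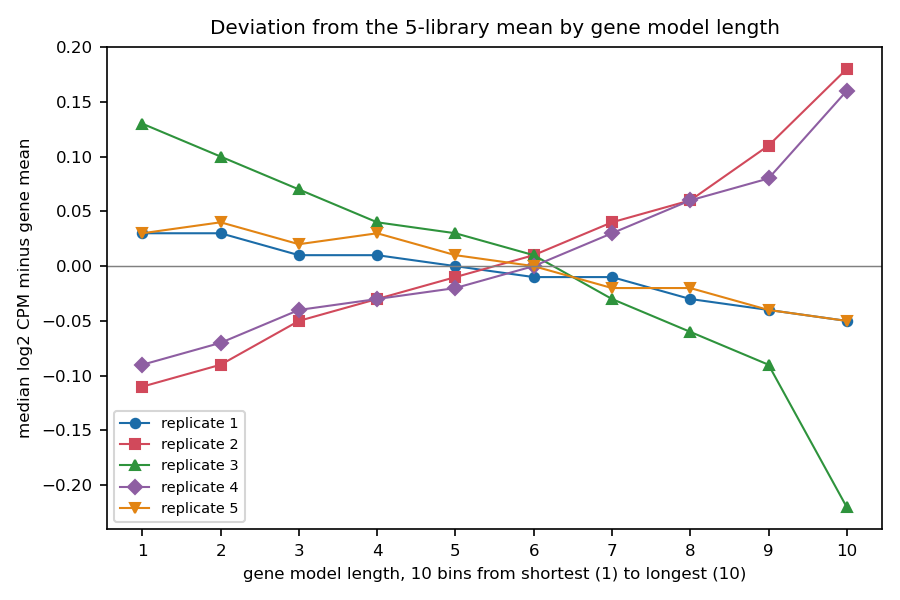
Median deviation of log2 CPM from the gene's mean over the 5 libraries (y axis) for 10 bins of gene model length from shortest to longest (x axis), with a line per library. Replicate 3 runs downward with length to -0.22 in the longest bin, while replicates 2 and 4 run upward to 0.18 and 0.16.

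Of 36528 gene models, 10721 (29.4%) reached a mean of 1 nRPKM and 717 (1.96%) reached 100 nRPKM. The 10 genes with most counts took 11.2% ± 1.32 of counts (SD, n = 5), the top 100 took 31.4% ± 1.88 and the top 1000 took 63.4% ± 1.49. The 25 most abundant named genes per length fell into few kinds. They held the class II genes Cd74, H2-Aa, H2-Ab1 and H2-Eb1, the class I genes B2m and H2-D1, the 3 chains of C1q, the lysosomal genes Ctss, Psap, Lgmn and Ctsd, and the signalling adaptors Tyrobp and Fcer1g. They also held Lyz2 (lysozyme), Apoe (apolipoprotein E), Fth1 (ferritin heavy chain), Tmsb4x (an actin-binding peptide), Cst3 (a secreted cathepsin inhibitor), Cd52, Itm2b, Tgfbi and mt-Cytb. The ranking left out 3 unnamed or predicted gene models that lay above the 25th named gene. It rests on uniquely aligned reads, so the rank of genes with near-identical copies is uncertain and some may be missing from it.

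Cd74, the invariant chain that guides class II molecules to the endosome, was the most abundant named gene, at 14870.1 ± 3861 nRPKM (SD, n = 5). Its levels were 10545, 11843, 15445, 16203 and 20315 nRPKM in replicates 1 to 5. Replicates 1 and 2 were the lowest and replicate 5 the highest. Second by level was Mir5107 at 10040.0 ± 2632 nRPKM, but this gene model is 88 bases long and lies within Cd74, so its reads cannot be told apart from those of Cd74 and its level says nothing of the microRNA. Below them the order was loose: among neighbours in the ranking from H2-Aa down to C1qa, the upper gene was above the lower one in only 3 or 4 of 5 libraries. The order was fixed in all 5 libraries from C1qa to C1qb and from C1qc through Psap to Cst3.

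Lyz2 was at 7072, 7448, 8017, 9198 and 7075 nRPKM, and Apoe at 4585, 7431, 7018, 9732 and 7015 nRPKM, both highest in replicate 4. Fth1 differed least, at 6831, 6364, 6426, 6735 and 7099 nRPKM. When genes were ranked by CPM, which favours long genes, 19 of these 25 were still among the top 25.

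**Figure D2:**
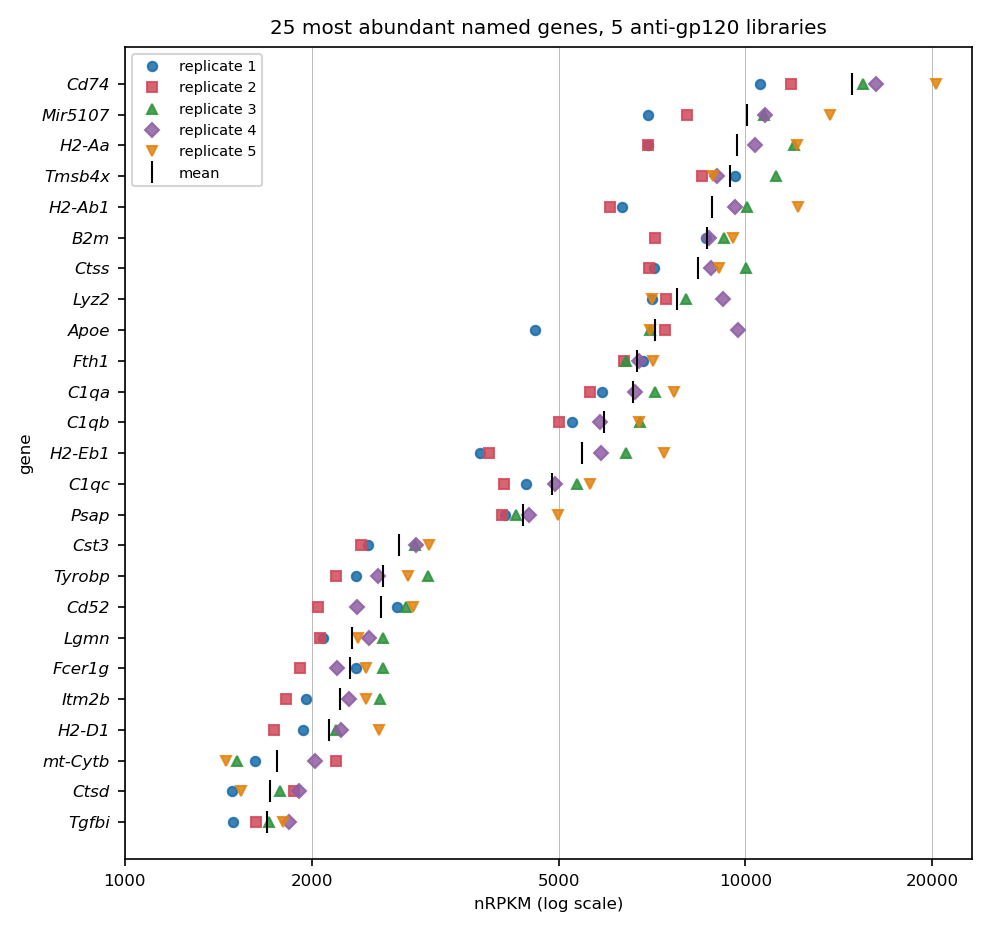
Levels of the 25 most abundant named genes (y axis) as nRPKM on a log scale (x axis), with a symbol per library and a bar at the mean of 5. Cd74 reaches 20315 nRPKM in replicate 5, and the widest ranges belong to Apoe and the class II genes, with replicate 1 or 2 at the low end.

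The class II antigen presentation genes had the highest median of the 26 functional lists, 509 nRPKM, against 8.86 nRPKM over the gene models that reached 1 nRPKM. Of its 14 members 13 reached 1 nRPKM and 8 reached 100 nRPKM, beside 29.4% and 1.96% of all gene models. H2-Aa, the alpha chain of I-A, was at 6955, 6975, 11992, 10374 and 12099.6 nRPKM, and H2-Ab1, its beta chain, at 6334, 6051, 10069, 9636 and 12144 nRPKM. For both chains replicates 1 and 2 were the lowest libraries. H2-Eb1, the beta chain of I-E, followed at 3739, 3867, 6410.0, 5860.5 and 7394 nRPKM, again with replicates 1 and 2 lowest. Cd74 was above H2-Aa in 5 of 5 libraries, by a ratio of 1.29 to 1.70, and H2-Ab1 above H2-Eb1 by 1.56 to 1.69.

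The accessory genes lay lower. H2-DMa and H2-DMb1, which exchange peptides on class II, were at 516 ± 85.9 and 502 ± 98.7 nRPKM (SD, n = 5). H2-Oa and H2-Ob, which restrain that exchange, were at 7.98 ± 2.01 and 6.98 ± 1.16 nRPKM, and H2-Eb2 was at 0.253 ± 0.0432 nRPKM. Ciita, the coactivator of class II transcription, was at 75.3, 72.4, 75.2, 96.9 and 151 CPM, with replicate 5 above the others.

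The promoters of class II genes are known for a Y box, the letters CTGATTGG, which contain an inverted CCAAT. This motif was added to the search after the list of motifs had been drawn up. Windows ran from 250 bases before to 50 after the gene start and were searched on both strands. They were available for 11 of the 14 genes of the class II list. The motif was present in 4 of 12 windows of that list (H2-Aa, H2-Eb1, H2-Eb2 and H2-Oa) and in 4.10% of all 32851 windows. Of these 4 genes, H2-Aa and H2-Eb1 were abundant and H2-Eb2 and H2-Oa were not, so genes with these letters lay at both ends of the level range. The bases before the start of both abundant genes are given 5′ to 3′ from RefSeq on GRCm38.p6, with the Y box in capitals, because the class II list had the highest median level per length. H2-Aa is read from the minus strand of chr17:34287824-34288073, with the box starting 51 bases before the gene, and H2-Eb1 from the plus strand of chr17:34305617-34305866, with the box starting 62 bases before it.
H2-Aa: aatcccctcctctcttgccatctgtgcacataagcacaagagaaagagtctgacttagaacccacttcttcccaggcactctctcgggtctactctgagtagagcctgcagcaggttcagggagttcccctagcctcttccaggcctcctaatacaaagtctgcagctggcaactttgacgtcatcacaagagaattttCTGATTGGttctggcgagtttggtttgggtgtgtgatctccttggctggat
H2-Eb1: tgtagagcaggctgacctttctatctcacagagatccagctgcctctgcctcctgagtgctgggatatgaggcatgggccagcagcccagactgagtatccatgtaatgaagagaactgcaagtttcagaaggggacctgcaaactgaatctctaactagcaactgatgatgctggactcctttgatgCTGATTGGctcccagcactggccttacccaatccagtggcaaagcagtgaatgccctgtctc

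All 24 members of the class I and peptide loading list reached 1 nRPKM and 13 reached 100 nRPKM (all gene models: 29.4% and 1.96%). B2m, the shared light chain of class I, was at 8643, 7144, 9243, 8738 and 9556 nRPKM, a level near that of the class II chains, with replicate 2 lowest. Its gene model lies within the span of Patl2, and whether the counting used strand is not given in the sources used here. The heavy chains H2-D1 and H2-K1 were at 2133 ± 314 and 1425 ± 192 nRPKM (SD, n = 5). The peptide transporter subunit Tap1 was at 232 ± 43.2 nRPKM, and the immunoproteasome subunits Psmb8, Psmb9 and Psmb10 at 454 ± 75.4, 173 ± 32.6 and 194 ± 39.3 nRPKM. Nlrc5, the coactivator of class I genes, was at 7.96 ± 1.30 nRPKM.

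The label of tumour macrophage was checked against lineage genes. In these lists, members named beyond the ranking rule of the methods were picked after their values were seen. All 22 genes of the macrophage identity list reached 1 nRPKM and 19 reached 100 nRPKM (all gene models: 29.4% and 1.96%). Adgre1, which encodes F4/80, was at 506, 568, 718, 644 and 595 nRPKM, and Cd68 at 517, 503, 479.9, 501 and 501 nRPKM. Cd68, an endosomal glycoprotein of macrophages, differed little, with its highest library 1.09-fold above its lowest. Csf1r, the receptor for M-CSF, was at 461, 565, 487, 579.6 and 494 nRPKM, 2.95 to 7.47 times the level of Csf2ra, a subunit of the GM-CSF receptor.

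Csf2ra was the member of this list with the largest range, at 164, 176, 159, 292 and 385 CPM, so that replicates 4 and 5 were above the other 3. Transcription factors of the lineage were all present, with Spi1 at 254 ± 27.0 nRPKM and Cebpa at 144 ± 33.0, while Maf (23.3 ± 2.44) and Runx1 (12.7 ± 2.33) were lower. Cx3cr1, a chemokine receptor of resident macrophages and patrolling monocytes, was at 320.4 ± 44.6 nRPKM (SD, n = 5).

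Receptors for antibody were abundant. Of the Fc receptor list 14 of 14 members reached 1 nRPKM and 8 reached 100 nRPKM (all gene models: 29.4% and 1.96%). Fcgr4, an activating receptor for IgG, was at 1307, 739, 1599, 989.8 and 1703 nRPKM, with replicates 2 and 4 lowest. Fcgr3 followed at 589.7 ± 41.9 nRPKM, then the inhibitory receptor Fcgr2b at 501 ± 56.6 and the high-affinity receptor Fcgr1 at 307 ± 46.3 (SD, n = 5). This order held in 5 of 5 libraries, with Fcgr4 1.35 to 2.96 times Fcgr3. The shared signalling chain Fcer1g stood above all 4 receptors at 2305 ± 264 nRPKM.

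Among complement genes, the 3 C1q chains, which together form the recognition molecule of the classical pathway, were at 6589 ± 856 (C1qa), 5918 ± 823 (C1qb) and 4888 ± 631 nRPKM (C1qc). Their genes lie side by side on chromosome 4, from 136880126 to 136898844 on GRCm38.p6, and their levels kept close ratios. C1qa was 1.06 to 1.14 times C1qb, and C1qb 1.18 to 1.26 times C1qc, over the 5 libraries. The alternative pathway genes Cfb (259 ± 49.4 nRPKM) and Cfp (237 ± 23) and the anaphylatoxin receptor C3ar1 (212 ± 21.2) were at intermediate levels. C3 was at 72.9 ± 17.0 nRPKM and C2 at 2.0 ± 0.633, and Cfd was near zero at 0.00531 nRPKM.

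Of 32 lysosomal genes 31 reached 1 nRPKM and 22 reached 100 nRPKM (all gene models: 29.4% and 1.96%). Ctss, the cathepsin that trims the invariant chain, was at 7122, 6982, 10017, 8807 and 9063 nRPKM, 3.72 to 5.90 times Ctsd. Ctsd and Ctsb, aspartic and cysteine proteases of the lysosome, did not separate (1717 ± 195 and 1692 ± 120.2 nRPKM), nor did Ctsc and Ctsz (1073 ± 79.7 and 1053 ± 95.4). Psap, the precursor of the saposins that help to degrade sphingolipids, was at 4376 ± 378 nRPKM. Ctsk, the cathepsin of bone resorption, was at 0.586 ± 0.664 nRPKM and was the only member below 1.

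Receptors for apoptotic cells were uneven. Axl was at 213, 243, 254, 288 and 261 nRPKM and Mertk, of the same TAM family of receptor tyrosine kinases, at 14.1, 21.1, 17.2, 20.3 and 18.6 nRPKM. Axl exceeded Mertk by 11.5 to 15.2 times in the 5 libraries, and Tyro3, the remaining family member, was at 0.0671 ± 0.0369 nRPKM. The bridging ligands Gas6 and Pros1 were at 19.7 ± 6.44 and 13.5 ± 2.79 nRPKM. Trem2, a lipid-binding receptor, was at 321, 379, 507, 412 and 357 nRPKM, and Itgb5, an integrin that binds the bridging protein Mfge8, at 239 ± 33.9 nRPKM. The phosphatidylserine receptors Timd4, Havcr1 and Stab2 were at 0.201, 0 and 0.0182 nRPKM, with no count of Havcr1 in any library.

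The highest members of the scavenger list were the C-type lectins Clec4a1 at 264 ± 43.8, Clec7a (dectin-1) at 242 ± 43.8 and Clec4n (dectin-2) at 238 ± 37.8 nRPKM. Msr1, scavenger receptor A, was at 135 ± 25.4 nRPKM and Mrc1, the mannose receptor CD206, at 51.3, 76.6, 58.1, 71.0 and 33.7 nRPKM. Cd163, the haptoglobin-haemoglobin receptor, was at 1.27 ± 0.969 nRPKM, Marco at 0.672 ± 0.155 and Cd209a at 0.643 ± 0.487. Levels within this list thus ran from 0.412 nRPKM (Colec12) to 264 nRPKM.

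Lipid and iron genes were led by Apoe and Fth1. Lgals3 (galectin 3) was at 863 ± 138 nRPKM, Pltp, a phospholipid transfer protein, at 247 ± 37.7 and Plin2, a lipid droplet coat protein, at 198 ± 27.5. The cholesterol exporter genes Abca1 and Abcg1 were at 57.8 ± 9.44 and 33.5 ± 9.02 nRPKM, and Gpnmb, often listed with lipid-laden macrophages, at 13.2 ± 1.45. Fabp4, Scd1 and Apoc4 were below 1 nRPKM. Ftl1, the ferritin light chain, was at 247 ± 23 nRPKM, and Fth1 exceeded it by 24.6 to 29.9 times. Ftl1 has near-identical copies that can take its reads under unique alignment, so that ratio is uncertain. The iron exporter Slc40a1 was at 2.26 ± 0.687 nRPKM, and the phagosomal transporter Slc11a1 at 298 ± 26.7. Sterol synthesis was the only functional list with no member at 100 nRPKM, with Ebp highest at 60.1 ± 5.85.

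Genes of the CC chemokines and their receptors were abundant, with 11 of 17 at 100 nRPKM or more (all gene models: 1.96%). Ccl4, a chemoattractant of T cells and monocytes, was the highest at 726 ± 202 nRPKM, 2.70 to 4.37 times Ccl3, and Ccl5 was at 535 ± 169. The monocyte chemoattractants Ccl12 (433 ± 139), Ccl8 (399 ± 78.4), Ccl7 (382 ± 150.2) and Ccl2 (352 ± 121) did not keep an order among the libraries. The dendritic cell chemokines Ccl17 and Ccl22 were at 0.447 ± 0.328 and 1.93 ± 1.02 nRPKM. Among CXC genes Cxcl9 and Cxcl10, which attract T cells through Cxcr3, were at 686 ± 182 and 643 ± 149 nRPKM and could not be ordered (Cxcl9 higher in 3 of 5 libraries). Cxcl11, the other Cxcr3 ligand, was at 6.59 ± 2.43, and Cxcl10 exceeded it by 84.3 to 151 times. Cxcl16 was at 507 ± 52.6, Cxcl2 at 275 ± 50.2 and Pf4 at 157 ± 56.5 nRPKM.

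Il1b, interleukin 1 beta, was the most abundant cytokine at 913, 1305, 1512, 1682 and 1304 nRPKM, lowest in replicate 1. Its antagonist Il1rn was at 214 ± 21.4 nRPKM and Tnf at 206 ± 44.8. Osm (oncostatin M), Tgfb1 and Vegfa were at 115 ± 28.2, 112 ± 14.1 and 109.9 ± 20.4 nRPKM. Il10 was at 24.4 ± 5.6, Il12b at 2.22 ± 0.434, Il6 at 1.56 ± 0.495, Il23a at 0.138 ± 0.0420 and Il12a at 0.0144 ± 0.0229 nRPKM. Il1b and its antagonist were thus plentiful where the subunit genes of interleukins 12 and 23 were at or near 0, apart from Il12b.

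Among checkpoint and regulatory genes Sirpa, the receptor for CD47, was at 207 ± 21.9 nRPKM, Lgals9 at 205 ± 14.4 and Cd86 at 80.9 ± 7.05. Cd274, which encodes PD-L1, was at 76.9, 42.5, 64.4, 56.0 and 89.5 nRPKM, lowest in replicate 2 and highest in replicate 5, whereas Pdcd1lg2 (PD-L2) was at 2.49 ± 1.01. Arg1, arginase 1, was at 463, 284, 201, 162 and 175 nRPKM and Nos2, which uses the same amino acid to make nitric oxide, at 20.9, 7.33, 4.10, 5.85 and 12.9 nRPKM. Arg1 was 13.6 to 49.0 times Nos2, and both were highest in replicate 1. The tryptophan-degrading enzyme genes Ido1, Ido2 and Tdo2 were near 0, with means of 0.0148, 0.00773 and 0.0178 nRPKM.

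Of 26 sensor genes 26 reached 1 nRPKM but 3 reached 100 nRPKM (all gene models: 29.4% and 1.96%). These were Unc93b1, which escorts the endosomal Toll-like receptors, at 741 ± 93.4 nRPKM, Tlr2, a receptor for bacterial lipopeptides, at 638 ± 124, and Sting1, the adaptor of DNA sensing, at 149 ± 16.4. Tlr2 exceeded the next receptor, Tlr13, by 5.86 to 10.3 times, and Tlr4 was at 24.3 ± 3.33 nRPKM. Cgas, the sensor upstream of Sting1, was at 4.33 ± 0.318 nRPKM.

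Interferon-linked lists had many members above 1 nRPKM (all gene models: 29.4%). They were 37 of 38 for type I interferon and 24 of 25 for interferon gamma. At 100 nRPKM or more were 6 and 9 members (all gene models: 1.96%). Ifitm3 (815 ± 227 nRPKM), Bst2 (614 ± 83.1) and Irf7 (276 ± 78.4) led the first, and Cxcl9, Cxcl10 and Gbp2 (373 ± 103) the second. Ifnb1, the gene for interferon beta, was at 1.13 ± 0.572 nRPKM.

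Of the energy programmes, 17 of 26 nuclear-encoded subunits of oxidative phosphorylation reached 100 nRPKM (all gene models: 1.96%). Cox4i1 (552 ± 57.4), Atp5b (486 ± 24.3) and Cox8a (349 ± 36.0) led them. Of the glycolysis and hypoxia list 5 of 26 reached 100 nRPKM, led by Aldoa (787 ± 118), Ldha (383 ± 60.1) and Tpi1 (318 ± 49.4). That list also holds hypoxia-induced genes such as Ndrg1, and the glycolytic genes Gapdh and Pgam1 were low in these values (below). The counts therefore do not rank the programmes. The actin list had 17 of 22 members at 100 nRPKM or more, led by Tmsb4x (9432 ± 1058), Actb (1668 ± 208) and Pfn1 (1507 ± 129). Immediate early genes were plainly present, with Zfp36 (691 ± 86.1), Junb (636 ± 102), Dusp1 (483 ± 34.9) and Fos (448 ± 65.4 nRPKM). Cell cycle genes were all above 1 nRPKM (all gene models: 29.4%), with Mcm6 at 54.5 ± 8.37, Top2a at 25.2 ± 5.53 and Mki67 at 1.69 ± 0.656. Tubb5, a beta-tubulin, was the only member above 100 nRPKM, at 310.5 ± 45.2.

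**Figure D3:**
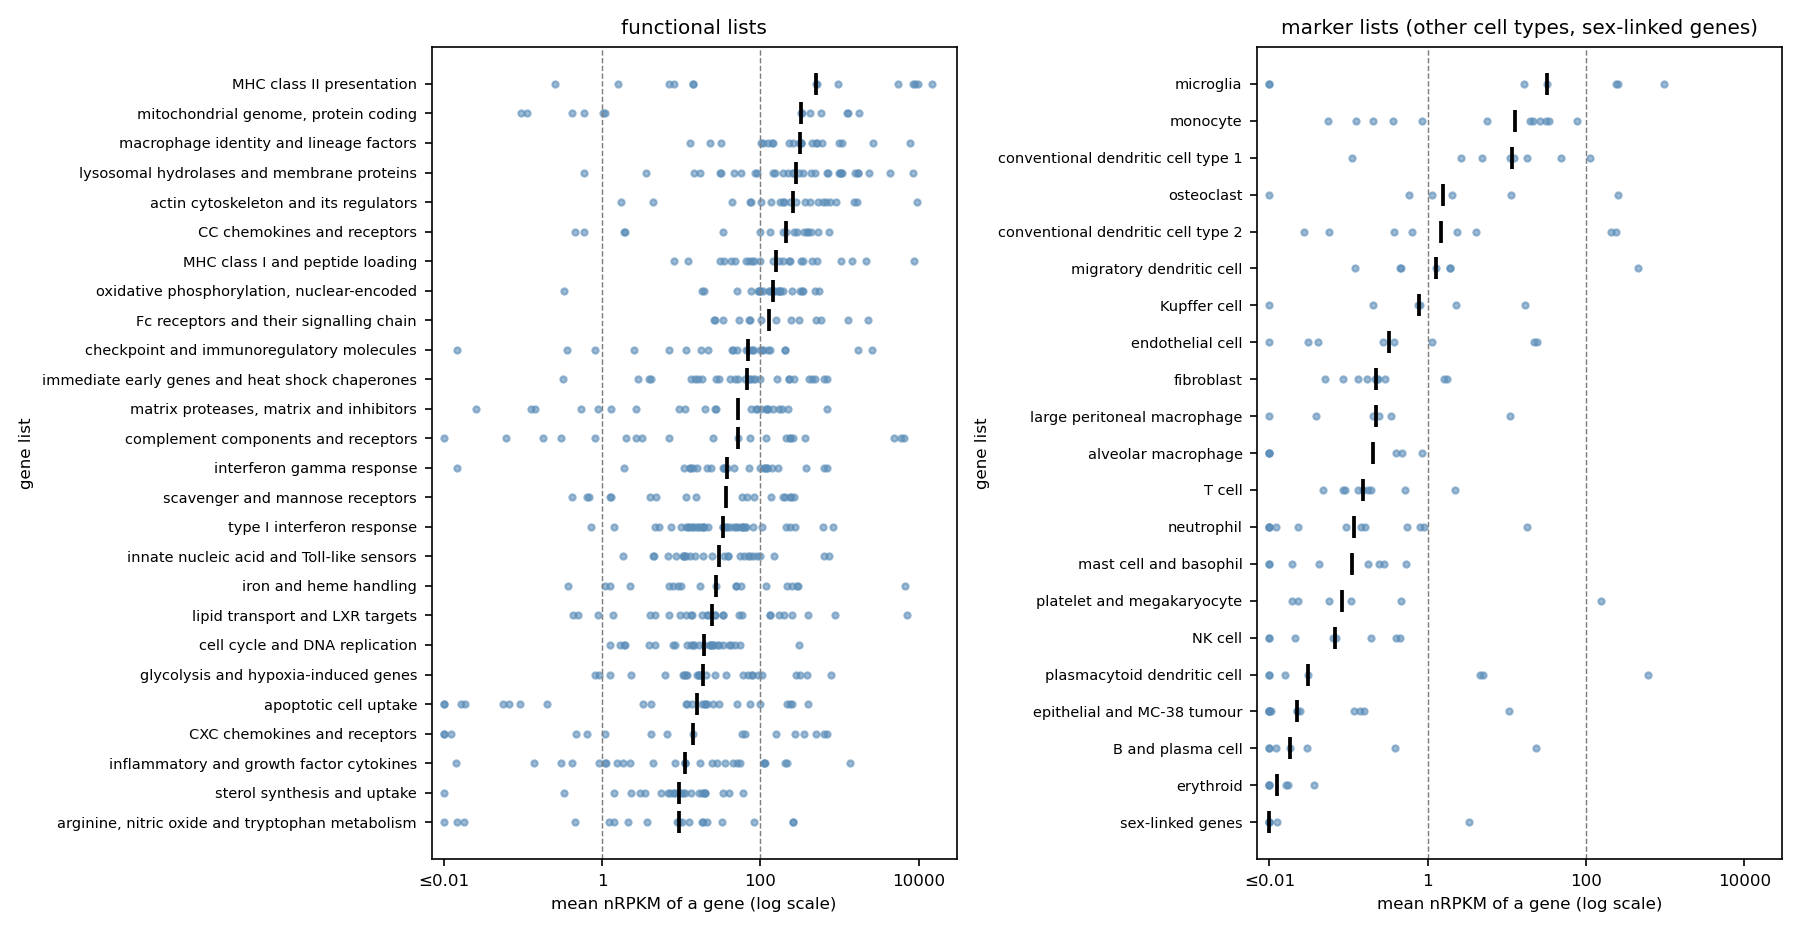
Mean nRPKM over 5 libraries on a log scale (x axis, values of 0.01 or less drawn at 0.01) for each member of the functional lists (left) and marker lists (right), each point a gene and each bar the list's median, with dashed lines at 1 and 100 nRPKM. Class II presentation has the highest median of the functional lists (509 nRPKM), and most lymphoid, granulocyte, stromal and epithelial markers lie below 1.

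Some genes that nearly all cells use were low in these values. Gapdh was at 1.27, 1.25, 1.18, 1.29 and 1.32 nRPKM, or 50 to 70 counts in a library, Actg1 at 1.71 ± 0.626 nRPKM, Pgam1 at 0.917 ± 0.273 and Cycs at 0.332 ± 0.0420. The cytosolic ribosomal protein genes were split: 17 of 81 reached 100 nRPKM, led by Rpl8 at 933 ± 36.3, while 39 were below 10 and Rpl23a and Rpl38 were at 0.622 and 0.631 nRPKM. Of the 13 protein genes of the mitochondrial genome, mt-Cytb, mt-Co1 and mt-Nd1 were at 1762, 1258 and 1246 nRPKM and mt-Co2, mt-Co3, mt-Nd3 and mt-Nd4l below 1. The deposited counts are of uniquely aligning reads, and the level of a gene with near-identical copies elsewhere in the genome is uncertain.

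The purity of the cells was read from marker lists of other types. Erythroid markers were at most 0.0371 nRPKM, and NK cell markers at most 0.449. Of 9 T cell markers matched, Cd3d, Cd3e and Cd3g were at 0.193, 0.0481 and 0.174 nRPKM and Cd4 alone passed 1, at 2.19 ± 0.923. Of 7 B and plasma cell markers Cd79b alone passed 1 nRPKM, at 23.7 ± 6.58, while Cd79a and Pax5 were at 0.0299 and 0.00177. Of 12 neutrophil markers Csf3r, the G-CSF receptor, was at 18.1 ± 3.89 nRPKM and the other 11 below 1, S100a8 and S100a9 included. The summed CPM of these lists ran from 7.89 to 14.5 for T cells, 19.9 to 40.3 for B cells and 64.7 to 106 for neutrophils.

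Of 12 epithelial and tumour markers Cdh1 (E-cadherin) was at 10.6 ± 2.30 nRPKM and the other 11, Epcam and the keratins among them, below 1. Fibroblast markers were led by Col3a1 and Dcn at 1.73 ± 1.15 and 1.62 ± 0.774 nRPKM, and their summed level was 26.3, 33.2, 9.08, 11.6 and 12.1 CPM, so that replicates 1 and 2 stood above the other 3. Of the endothelial list Eng (24.0 ± 3.72) and Pecam1 (22.1 ± 4.0) were the highest members, while Cdh5 was at 0.378 and Tek at 0.000965 nRPKM. The sex-linked genes gave Xist at 3.33 ± 0.860 nRPKM, with Ddx3y, Eif2s3y, Kdm5d and Uty between 0 and 0.0125 nRPKM.

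Myeloid neighbours left more signal. The monocyte list was led by Fn1 (76.8 ± 34.6 nRPKM), Ccr2 (33.8 ± 10.9), F13a1 (31.4 ± 17.3) and Spn (26.2 ± 5.96), while Ly6c2 was at 5.67 ± 2.57. Of its 12 members 7 reached 1 nRPKM and 5 were below it, where 29.4% of all gene models reached it. The list's summed level was 1418.0, 1605, 719.8, 1213 and 767 CPM, so that replicates 3 and 5 were the lowest. Fn1 alone gave 819, 1034, 327, 675 and 384 CPM of that sum. The list's score, 4.83, 4.41, 3.76, 4.23 and 3.94, was lowest in the same libraries. Of type 1 dendritic cell markers Naaa (114 ± 19.1 nRPKM) and Cadm1 (48.6 ± 7.18) were highest, with the restricted genes Xcr1 and Clec9a at 4.89 ± 1.92 and 2.63 ± 1.63. Of 8 type 2 dendritic cell markers 4 reached 1 nRPKM, led by Itgax (238 ± 27.9) and Sirpa (207 ± 21.9). Flt3 and Zbtb46 of the same list, which mark conventional dendritic cells, were at 0.0559 and 0.0272 nRPKM. Cd83 was high (454 ± 113) without the other genes of the migratory dendritic cell list, whose highest was Ccl22 at 1.93. In bulk RNA fewer cells of a type and less RNA per cell cannot be told apart.

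Genes that mark resident macrophages of other organs were uneven. Of the microglial list Tmem119 was at 253 ± 38.1 nRPKM, Fcrls at 238 ± 80.8, P2ry12 at 32.1 ± 7.49 and Gpr34 at 16.6 ± 4.77. Sall1 had no count in any library, against a limit of 0.0721 to 0.0917 CPM that 3 counts set, and Siglech was at 0.00190 nRPKM. Markers of alveolar macrophages were all below 1 nRPKM. Of 6 Kupffer cell markers Id3 was at 17.2 ± 2.78 and Slc40a1 at 2.26 nRPKM, while Timd4 and Vsig4 were at 0.201 and 0.807 nRPKM and Clec4f had no count. Of the large peritoneal macrophage list Icam2 was highest at 11.1 ± 1.38 nRPKM, and the transcription factor Gata6 lowest at 0.00268. Acp5, tartrate-resistant acid phosphatase, was at 252 ± 70.7 nRPKM, and Ocstamp, Atp6v0d2 and Dcstamp of the same osteoclast list at 11.3 ± 2.02, 2.04 and 1.12. The other 2 of its 6 members, Ctsk and Calcr, were at 0.586 and 0.

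Variation between the 5 libraries was small for most genes. Over 9705 genes with a mean of at least 5 CPM, the highest library exceeded the lowest by a median of 1.30-fold, a range of 0.37 on the log2 scale, and the range lay between 0.15 and 0.97 from the 5th to the 95th percentile. The highest library was at least 2-fold above the lowest for 441 genes, 4.54% of those examined. Replicate 3 was the lowest library for 165 of the 441, and these had a median gene model length of 7964 bases against 3275 over all 9705 genes. Replicate 2 was the highest for 126, with a median length of 6882 bases. Subtracting the length trend of each library left 343 genes. Leaving out replicates 1 to 5 in turn left 347, 306, 292, 379 and 331 genes. A range over fewer libraries can hardly grow, so a lower count was near certain whichever library was left out.

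No functional list spanned 1 on the log2 scale in its score, the mean log2 CPM of its members. The widest was the scavenger receptor list, whose scores were 5.79, 5.87, 5.45, 5.84 and 4.91, lowest in replicate 5. Its range of 0.96 became 1.0 once the length trend was removed and 1.13 without replicate 3 or replicate 4. The score weighs low and abundant members alike, and Lyve1, described below, was the member of largest range. Of the 14 members at 5 CPM or more, 4 spanned 2-fold. The summed level of the list was 3128, 3196, 3804, 3339.6 and 2912 CPM, highest in replicate 3 and lowest in replicate 5. The interferon gamma list, with a range of 0.76, scored 7.50, 6.81, 7.28, 7.05 and 7.57, and the type I interferon list, with a range of 0.72, scored 6.54, 6.02, 6.37, 6.39 and 6.74. Both interferon lists were highest in replicate 5 and lowest in replicate 2. Sterol synthesis, with a range of 0.75, scored 4.61, 5.02, 5.22, 5.12 and 4.47, lowest in replicates 1 and 5.

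Members past 2-fold made up more than the 4.54% of all genes in several lists. They were 9 of 24 for interferon gamma, 10 of 36 for type I interferon, 9 of 21 for sterol synthesis and 8 of 13 for CC chemokines, with median member ranges of 0.87, 0.77, 0.72 and 1.13 on the log2 scale against 0.37. The counts were 4 of 10 for CXC chemokines, 6 of 17 for matrix genes, 4 of 14 for scavenger receptors and 7 of 27 for immediate early and heat shock genes. No member of the lists for class I presentation (24 genes), sensors (26), oxidative phosphorylation (25), actin (20), cytokines (20) and the mitochondrial genome (7) passed 2-fold, but lists of this size would hold few such genes at the share of all genes. The members were chosen with earlier results of these data known, so the counts describe the lists only.

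**Figure D4:**
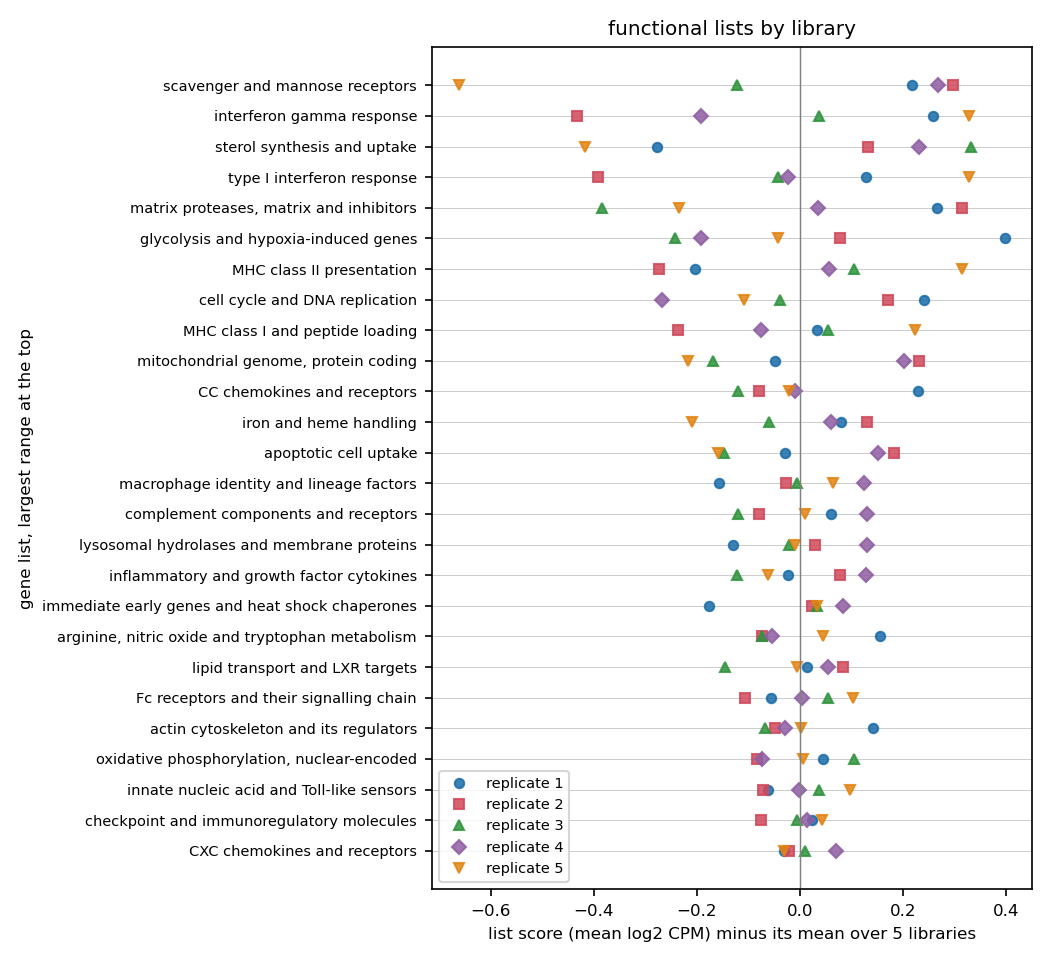
Score of each functional list, the mean log2 CPM of its members, minus its mean over 5 libraries (x axis), with a symbol per library and lists ordered by range (y axis). Scavenger receptors are lowest in replicate 5 and both interferon lists lowest in replicate 2, while replicate 1 is highest for glycolysis and hypoxia genes.

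Among interferon gamma genes the guanylate-binding protein Gbp2b had the largest range, at 151, 50.2, 135, 68.5 and 255 CPM, 5.08-fold from replicate 2 to replicate 5. Gbp2 was at 1290.3, 631, 979, 749 and 1025 CPM, Irgm1, an immunity-related GTPase, at 478, 232, 417, 279 and 496 CPM, and Cxcl9 at 2487, 1229, 2224, 1683 and 2317 CPM. In all 4 genes replicates 2 and 4 were the lowest and replicates 1, 3 and 5 the highest. Cd274 (279.8, 157, 233, 203 and 325 CPM) and Fcgr4 (1633, 935, 1982, 1231 and 2124 CPM) had the same 2 lowest libraries. The receptor genes Ifngr1 and Ifngr2 differed by 1.35-fold and 1.08-fold. Acod1, which makes itaconate, was at 319, 139, 259, 212 and 466 CPM.

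The core of the interferon-stimulated response element, GAAA repeated after a gap of 2 bases and searched on either strand, was present in 12 of 22 promoter windows of the interferon gamma list and 18 of 34 of the type I interferon list, against 3.44% of all 32851 windows. Windows were available for 19 of the 25 interferon gamma genes, 28 of the 38 type I interferon genes and 23 of the 30 most variable genes. Among those 23, Gbp2b alone held this motif. The TATA box, TATAAA, was present in 6 of 31 windows of those 23 genes, 19.4%, against 13.6% of all windows. The bases before Gbp2b are given from RefSeq on GRCm38.p6, plus strand, chr3:142594597-142594815, with the match in capitals (read on the other strand, starting 106 bases before the gene), because this gene spans the widest range of its list.
Gbp2b: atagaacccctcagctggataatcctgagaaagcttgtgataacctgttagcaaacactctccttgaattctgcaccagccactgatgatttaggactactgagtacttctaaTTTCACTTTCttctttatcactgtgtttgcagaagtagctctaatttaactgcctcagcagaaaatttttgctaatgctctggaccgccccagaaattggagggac

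The largest ranges of all named genes belonged to a set that was low in replicate 5 and, for several, in replicate 3. Lyve1, a hyaluronan receptor of perivascular macrophages and lymphatic vessels, was at 18.8, 20.1, 1.8, 22.1 and 0.369 CPM, or 684, 836, 59, 815 and 15 counts. Its highest library, replicate 4, was 52.5-fold above its lowest, replicate 5, with the prior count of 2. That prior count narrows folds at low counts, so the CPM values themselves lie farther apart. Cd209f, a lectin of the DC-SIGN family, was at 9.53, 11.3, 1.96, 11 and 0.270 CPM, and Ednrb, the endothelin B receptor, at 7.93, 8.97, 1.59, 9.90 and 0.246 CPM. Ednrb lies within the span of the non-coding gene model Gm35197. Cd163 too was lowest in replicates 3 and 5, at 9.20, 9.26, 1.47, 8.49 and 0.492 CPM.

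Cbr2, a carbonyl reductase, was at 35.8, 33.7, 13.1, 31.4 and 3.51 CPM, Fcna (ficolin A) at 14.1, 13.8, 3.33, 15.7 and 2.24 CPM, and Npl at 13, 10.2, 4.01, 8.92 and 1.70 CPM. Retnla, a secreted protein induced by interleukin 4, was at 5.95, 27.7, 3.85, 16.1 and 1.23 CPM, highest in replicates 2 and 4. In each of these 8 genes replicate 5 was lowest and replicate 3 next. F13a1, a coagulation factor subunit, was at 199.8, 179.9, 72.6, 125 and 38.9 CPM, and the chemokine gene Pf4 at 101, 138, 90.1, 91.3 and 43.0 CPM. The folate receptor gene Folr2, picked after its values were seen, was at 68.9, 55.6, 42.2, 54.9 and 23.5 CPM. Clec10a, a galactose lectin, was at 6.83, 9.76, 4.83, 6.62 and 2.48 CPM. These 4 genes too were lowest in replicate 5 and next lowest in replicate 3, while the broad markers Adgre1 and Csf1r differed by 1.41-fold and 1.25-fold over the libraries. Some marker lists of other cell types were lowest in the same libraries, and others were not. The summed monocyte list, of which F13a1 is a member, was at 719.8 and 767 CPM in replicates 3 and 5 and at 1213 to 1605 CPM in the others. The score of the type 2 dendritic cell list, of which Clec10a is a member, was 5.15, 5.47, 4.73, 5.24 and 4.41, and that of the Kupffer cell list 2.41, 1.85, 1.24, 2.41 and 1.15. The part of such cells in these differences was not tested.

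Replicate 1 was highest for another set. Cd36, a receptor for oxidised lipids, was at 97.8, 43.7, 14.3, 36.1 and 39.0 CPM, Nos2 at 90.0, 32.0, 17.5, 25.1 and 55.4 CPM and Mmp12, macrophage elastase, at 135, 88.5, 27.9, 48.7 and 63.0 CPM. Replicate 3 was lowest for these 3 genes. Plac8 was at 32.8 CPM in replicate 1 and 5.78 to 11.2 CPM in the others, and Angptl2, whose gene model lies within the span of Ralgps1, at 31.9, 15.7, 6.79, 9.46 and 9.90 CPM. Arg1 (683, 425, 295, 238 and 257 CPM), the matrix protein gene Spp1 (587, 295, 174, 204 and 163 CPM) and the hypoxia-induced Ndrg1 (82.6, 53.8, 29.4, 32.1 and 50.1 CPM) shared the highest library. Spp1 was picked after its values were seen. The glycolysis and hypoxia list was highest in replicate 1 as well, with scores of 6.53, 6.21, 5.89, 5.94 and 6.09.

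Genes known from dendritic and stromal cells were among the most variable too. Clec9a, of type 1 dendritic cells, was at 18.7, 5.75, 9.63, 7.75 and 25.3 CPM, highest in replicates 1 and 5, and Xcr1 at 24.9, 16.7, 19.9, 12.6 and 34.7 CPM. Clec9a lies within the span of Clec12b, and Xcr1 was picked after its values were seen. The collagen genes Col3a1 (15.3, 17.9, 3.45, 5.61 and 5.90 CPM) and Col6a1 (8.18, 14.0, 2.48, 4.07 and 3.83 CPM) were highest in replicates 1 and 2, the same libraries in which the summed fibroblast markers were highest. Cspg4 and Pmp22 were highest in replicate 1, at 14.6 and 53.7 CPM. The part of stromal cells in these values was not tested.

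Other genes among the 30 ordered the libraries in different ways. Sra1 was at 63.9, 57.8 and 66.7 CPM in replicates 1 to 3 and at 6.10 and 6.46 CPM in replicates 4 and 5, a gap of 10.8-fold between highest and lowest with close values on either side. Trappc12, a subunit of a vesicle tethering complex, was at 140.4 CPM in replicate 2 and 31.5 to 34.9 CPM elsewhere. Dusp18, a phosphatase gene, was at 5.67, 2.55, 24.3, 13.1 and 19.6 CPM. Adamdec1, a macrophage metalloprotease, was lowest in replicate 1 (1.43, 5.07, 9.17, 4.37 and 7.47 CPM), and Jag2, a Notch ligand, highest in replicate 2 (4.30, 9.33, 1.74, 6.97 and 4.03 CPM). Rasgrp3 was at 1.87, 7.60, 4.04, 9.35 and 2.92 CPM and Tnfrsf9, which encodes 4-1BB, at 12.6, 10.5, 3.18, 5.56 and 12.4 CPM.

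**Figure D5:**
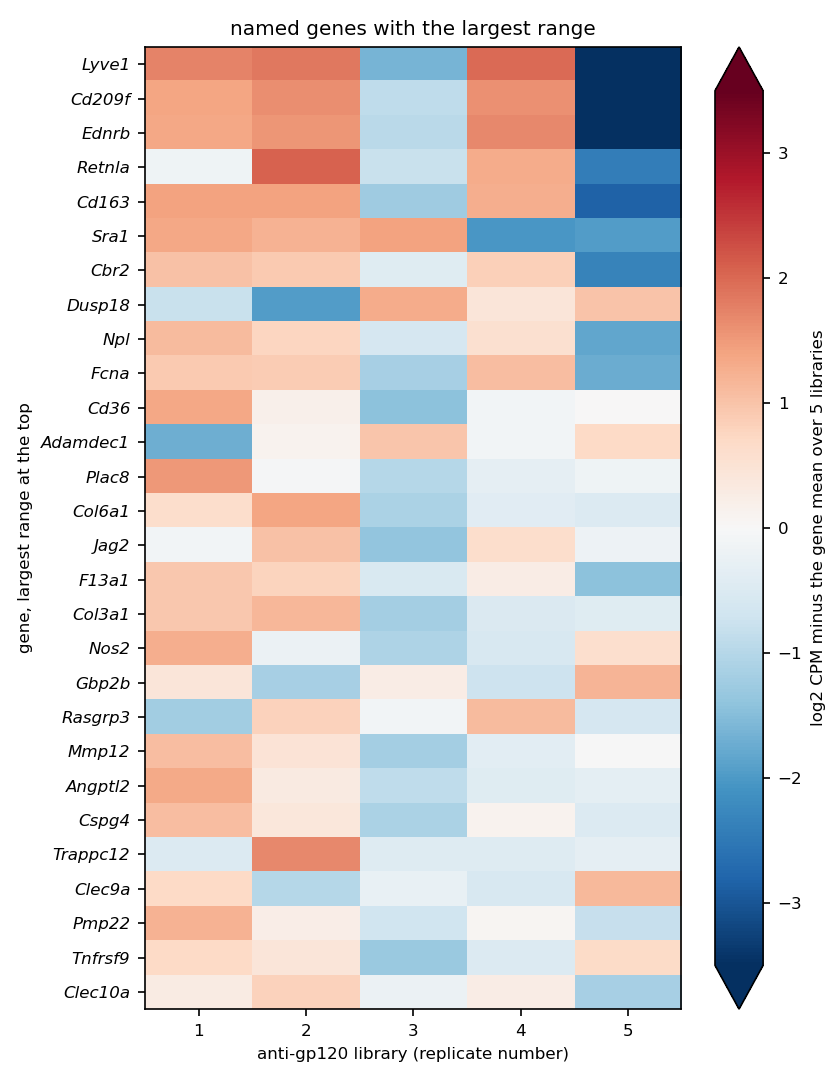
Heatmap of log2 CPM minus the gene's mean over 5 libraries (colour, red above and blue below) for 28 of the 30 named genes of largest range (y axis) in the 5 anti-gp120 libraries (x axis). The genes at the top, led by Lyve1 with a 52.5-fold range, are low in replicate 5 and mostly in replicate 3, and Sra1 is low in replicates 4 and 5.

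For the class II genes, the summed level of the list was 49215 CPM in its lowest library and 85376 CPM in its highest, and its main members differed between libraries in the same way. H2-Aa was at 8281, 8412, 14162, 12298 and 14380.2 CPM, H2-Ab1 at 7554, 7309.9, 11911, 11442 and 14457 CPM and H2-Eb1 at 6239, 6535, 10608, 9735 and 12314 CPM. Replicates 1 and 2 were lowest for all 3, with ranges of 1.74-fold, 1.98-fold and 1.97-fold, just under the 2-fold mark. Ciita was the member past it, at 2.08-fold. Apoe ranged 2.11-fold, from 6375 CPM in replicate 1 to 13474 CPM in replicate 4.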

How the data were processed

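Polyadenylated RNA of the 5 anti-gp120 libraries was used, and the 5 libraries of the other treatment were not analysed here. Per the file headers, the deposited count column holds whole-number counts of uniquely aligned reads per gene model, and the second column holds RPKM that the authors adjusted by a size factor per library (nRPKM). GSNAP and GRCm38 are named in the submitters' processing notes. The sources used here give no aligner version, counting tool or use of strand. RefSeq's table for GRCm38.p6 gave symbols to 31049 gene identifiers out of 36528, and GENCODE M21 gave 78 more. Identifiers that kept no symbol held 2.14% to 2.65% of counts.

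Counts were scaled to CPM with edgeR 4.0.16 (TMM sizes, R 4.3.3), and log2 CPM used a prior count of 2. Variation was read from the range of log2 CPM over genes with a mean of at least 5 CPM, with 2-fold as the mark. There was 1 group, so no test between groups was made and no p-value is given. A list's score is the mean log2 CPM of its members with a mean of at least 1 CPM. Gene model length was recovered from the ratio of count to nRPKM, calibrated on genes whose model equals their span. The range measure was tested on simulated counts of 9705 genes in 3 runs, where 98% of 200 genes given an SD of 1 (log2) were recovered and 1.3% of the others were called. With an SD that large, recovery past the 2-fold mark was near certain. The simulated counts held no length trend between libraries, so 1.3% is not a rate of false calls for the real data.

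Named genes were the 25 of highest mean nRPKM, the 30 of largest range, the 3 highest members and the most variable member of each functional list, and the 2 highest of each marker list. Unnamed, predicted and pseudogene symbols were left out of the rankings. Members and lists were chosen with earlier results of these data known, and list members named beyond this rule were picked after their values were seen. A few genes of these rankings and lists are not reported here, though they stay in the counts and scores. The Y box was added to the motif search later than the 2 other motifs. Alternatives covered normalization, the level filter, the prior count, the scoring of lists, gene length (added after seeing the data) and leaving out each library. Python 3.11.15 with pandas 2.3.3, numpy 2.4.6, scipy 1.17.1 and matplotlib 3.10.9 was used for the rest.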

Additional observations from a re-analysis of the deposited data

Results flagged for a closer look

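In 12 of 221 sets of 5 values (165 named genes, 45 lists and 11 library measures) 1 library was separated from the rest. The gap between the highest or lowest library and the others was at least 0.71 of the whole range. For independent normal values chance gives about 1 set in 20, a share near the one seen. Some genes were picked for their large range, so that rate does not strictly hold, and the sets are listed for a closer look only. Plac8 was at 32.8 CPM in replicate 1 and at 5.78 to 11.2 CPM in the others. Trappc12 was at 140.4 CPM in replicate 2 and at 31.5 to 34.9 CPM in the others. Tlr9, the endosomal receptor for unmethylated DNA, was at 199 CPM in replicate 5 against 107 to 131 CPM. Ldha, lactate dehydrogenase A, was at 941 CPM in replicate 1 against 642 to 722 CPM. Ndufa4, a subunit of the respiratory chain, was at 20.4 CPM in replicate 5 against 28.2 to 31.0 CPM. Eng, the endothelial and macrophage receptor endoglin, was at 113 CPM in replicate 5 against 78.1 to 87.0 CPM.

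The others stood at low levels. The mast cell tryptase Tpsb2 was at 2.52 CPM in replicate 2 against 0.108 to 0.214 CPM, and the keratin Krt8 at 1.32 CPM in replicate 1 against 0 to 0.0492 CPM. The globin gene Hbb-bs at 0.0542 CPM in replicate 4, with 0 elsewhere, and the Y-linked Eif2s3y at 0.110 CPM in replicate 1, against 0 to 0.0240 CPM, rest on very few counts. The score of immediate early and heat shock genes was 7.22 in replicate 1 against 7.42 to 7.48, and that of mast cell and basophil markers was -0.19 in replicate 3 against 0.59 to 0.90.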

How the results depend on the processing

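The share of the 10 most abundant genes was 11.2% of counts and 18.6% of summed nRPKM. The 441 genes that spanned 2-fold became 942 with a filter at 1 CPM, 214 with a filter at 20 CPM and 6320 without a filter, and of the 30 most variable genes 9, 9 and 4 kept their place. Leaving out each library gave 292 to 379 genes, with the lowest count without replicate 3, and 20 to 27 of the 30 were kept. A fall below 441 was near certain there, because a range over fewer libraries can hardly grow. Functional lists that spanned 1 in score went from 0 to 1 with library totals (scavenger receptors, 1.08), with every counted member (scavenger receptors, 1.13), with the median over members (CXC chemokines, 1.45) and with the gene length adjustment chosen after seeing the data (scavenger receptors, 1.0). Leaving out each library gave 0 to 1 such lists. Other normalizations and a prior count of 0.5 gave 428 to 478 genes. All 1485 levels of named genes recomputed under the alternatives stayed within 1 SD of the reported value. Leaving out 1 library or taking the median cannot move a level by more than 1 SD, so such settings could not fail. The count of 1485 therefore does not show that the levels are stable. Of 495 list ranges, 459 did not move by more than the spread. No paired analysis was possible because only 1 group was described and the replicate numbers only name the libraries. Depth limits genes near 0.0721 to 0.0917 CPM (3 counts), where counting error alone allows large folds, and unique alignment limits genes with near-identical copies.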
